A study of Sus scrofa with 18 samples.

Results

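The genes described here encode the proteins of the cytosolic ribosome. They were taken by name from a table of 30686 genes, as the RPL and RPS genes with a number and, where present, a final A or X, together with RPLP0, RPLP1, RPLP2 and RPSA. The rule found 77 rows, 46 for the large 60S subunit and 31 for the small 40S subunit. Of these, 76 passed the filter on low counts, as did 13592 genes of the whole table. The row left out was a second entry for RPL18 (gene ID 751868, chromosome 1, 84378453 to 84379052 in Sscrofa11.1), which held 0 counts in every library; RPL18 itself (100738912, chromosome 6) was tested. The tested genes lay on 17 chromosomes, 4 of them on the X chromosome, and spanned 1157 to 18201 bp. Ribosomal proteins have many processed pseudogenes, and the sources used here do not say how reads shared with such copies were counted, so that small differences between these genes are uncertain in that respect.

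The cells were alveolar macrophages, phagocytes that live in the air spaces of the lung, from healthy Danish Landrace-Yorkshire pigs, and all groups were cultured outside the animal. Each of 6 groups has 3 libraries, from pigs numbered 1 to 3, and exposure lasted 24 hours in all of them. The control group received nothing; the other groups received poly I:C, a synthetic double-stranded RNA that imitates a viral genome, the bacterium Bacillus subtilis, the bacterium Enterococcus faecium, B. subtilis with poly I:C, or E. faecium with poly I:C. The sources used here give no doses, no bacterial strains and no age or sex of the pigs, and name no genetic change in any group.

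A ribosome joins a small subunit, which holds the messenger RNA and reads its codons, to a large subunit, which links the amino acids. Each ribosomal protein is needed in about the same amount, and in mammals nearly all of their mRNAs begin with a terminal oligopyrimidine (TOP) tract, through which the kinase mTORC1 and the RNA-binding protein LARP1 control how strongly they are translated and how long they last. Double-stranded RNA activates PKR, the product of EIF2AK2, which slows translation by phosphorylating the initiation factor eIF2. The mRNA level measured here therefore says nothing on how much of each protein was made.

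Libraries held 16.3 to 27.3 M (megacounts), and a tested ribosomal protein gene had 1268 to 27026 counts in a library, so that counting error was small beside the spread between libraries. All 14 alveolar macrophage markers were present, with a summed level of 8880 to 10600 CPM in control. CPM are counts scaled to a library of 1 megacount, here with library sizes corrected by TMM, a factor explained below. Endothelial and fibroblast markers summed to at most 8.96 CPM and erythrocyte markers to at most 22.7 CPM in any library. Over all 6 groups the libraries did not group by the pig numbers of their labels. Over the 13516 tested genes that are not ribosomal proteins, the residuals of same-numbered libraries had a mean correlation of 0.0226 over 45 pairs. An assignment of 1 library per treatment to each of 3 sets reached 0.616, with 0.415 as its lowest pair, and the next best assignment 0.452. In this assignment 8 of the 18 libraries carried a number other than that of their set. Every library of control, poly I:C and B. subtilis with poly I:C carried the number of its set. Set 1 held the libraries numbered 1 of control, poly I:C and B. subtilis with poly I:C, plus those numbered 3 of the other treatments. Set 2 held the libraries numbered 2 of control, poly I:C, E. faecium and B. subtilis with poly I:C and those numbered 1 of B. subtilis and of E. faecium with poly I:C. Set 3 held the rest. The sets were found from the data and serve below only as a block in the model and for comparisons within a set. They were chosen for high residual correlation in these same libraries. P-values with the sets as a block can therefore be too small, and counts of calls with it too high, wherever it is used below.

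Ribosomal protein mRNAs took 1.71 to 4.67% of a library's counts. In control the share was 3.03, 3.05 and 2.54% in the libraries numbered 1, 2 and 3, a mean of 2.87% ± 0.287 (SD, n = 3 here and below). With B. subtilis and poly I:C it was 4.67, 2.14 and 3.52%. The libraries numbered 1 and 3 thus held the highest shares of all 18, and the library numbered 2 lay below every control. With poly I:C alone the share was 3.18, 2.26 and 1.71%, with B. subtilis 2.38, 2.37 and 2.88%, and with E. faecium 2.25, 2.62 and 3.28%. Each of these groups overlapped control. The poly I:C libraries numbered 2 and 3 lay below every control. So did the B. subtilis libraries numbered 1 and 2 and the E. faecium library numbered 1. With E. faecium plus poly I:C the share was 2.16, 1.84 and 2.01%, a mean of 2% ± 0.161, and all 3 libraries lay below the 3 controls.

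The share of counts and the level after scaling did not move alike. Levels here are CPM scaled by TMM, a factor that sets the bulk of genes equal between libraries. TMM factors were 1.27 to 1.33 in control and 0.875 to 0.928 with E. faecium and poly I:C, and they were 0.664, 0.863 and 0.719 with B. subtilis and poly I:C. On this scale the median log2 CPM of the 76 genes was 8.14, 8.06 and 7.86 in control, and 8.06, 7.92 and 8.09 with E. faecium and poly I:C, so that these groups overlapped. It was 9.73, 8.16 and 9.26 with B. subtilis plus poly I:C, 8.8, 8.13 and 7.77 with poly I:C, 8, 8.1 and 8.36 with B. subtilis, and 7.91, 7.77 and 8.49 with E. faecium. Of the 76 genes, 76 exceeded every control in the libraries numbered 1 and 3 of B. subtilis with poly I:C, and 38 did so in the library numbered 2. So did 75 in the poly I:C library numbered 1, 72 in the E. faecium library numbered 3 and 70 in the B. subtilis library numbered 3. In each remaining treated library at most 37 did. The share of all genes above every control in a library is not given here, so that these counts stand without that background. In whole-culture RNA, a change in the share of cells of a type and a change in RNA per cell cannot be told apart.

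**Figure D1:**
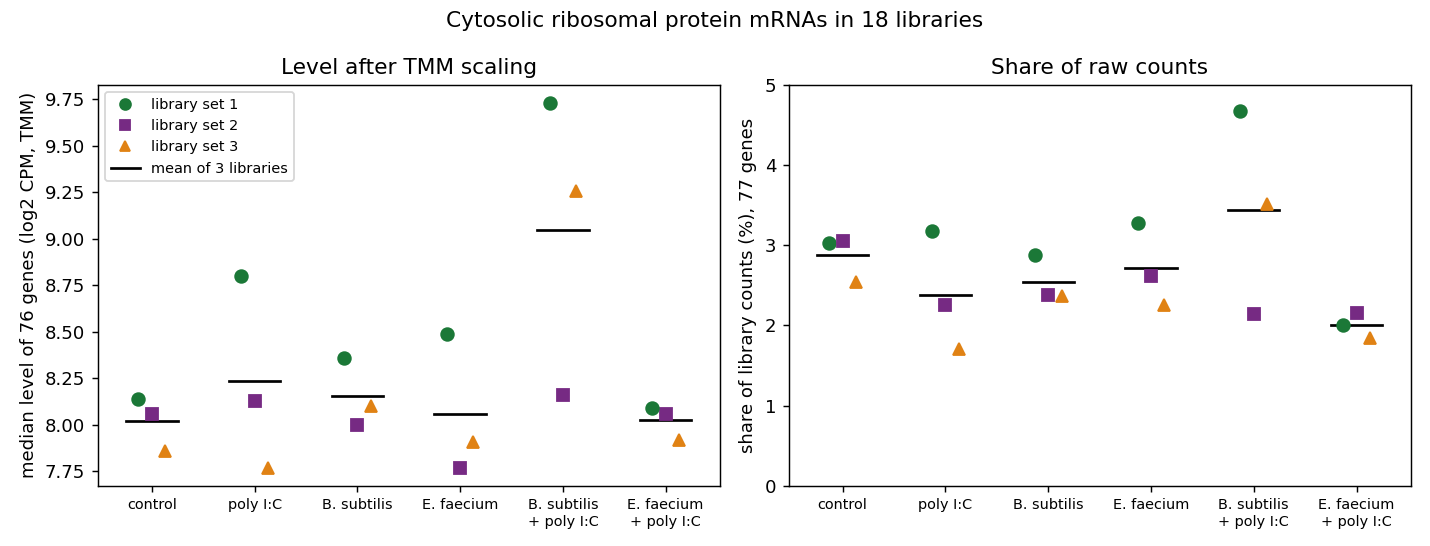
Median log2 CPM (TMM-scaled) of 76 ribosomal protein genes, and share of raw counts in percent of all 77 rows, in each of 18 libraries by treatment. Points are libraries, marked by library set, and bars are means of 3. The libraries of sets 1 and 3 with B. subtilis and poly I:C stand highest on both scales, at 9.73 and 9.26 log2 CPM and at 4.67 and 3.52%.

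None of the 76 genes passed an adjusted p of 0.05 in the 5 main comparisons, neither with edgeR's quasi-likelihood test nor with DESeq2. With poly I:C against control the median change was 0.31 log2 units, between 0.03 and 0.56, where the median of all genes was -0.01, and -0.24 against -0.54 on library totals; 0 genes had an unadjusted p under 0.05, although 22.5% of all tested genes were called with edgeR and 27.7% with DESeq2. The highest changes were those of the 40S proteins RPS27, at 0.56 (SE 0.34), and RPS12, at 0.54 (SE 0.37), followed by RPL36 at 0.53 and RPL37A at 0.52. RPL15, RPS18, RPL4 and RPL5 were the lowest, from 0.03 to 0.04. The library numbered 1 stood apart here: RPS12 was at 722, 439 and 333 CPM with poly I:C and at 380, 351 and 293 CPM in control. Without that library the median change was -0.03. Within sets 1, 2 and 3 the median difference from the control library was 0.69, 0.1 and -0.07 log2 units, and 76, 63 and 13 of the genes were higher.

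B. subtilis alone gave a median change of 0.13 log2 units against control, between -0.04 for RPL10, which joins the large subunit late in its assembly, and 0.31 for RPS12; on library totals it was -0.18, with all genes at -0.33. With edgeR 4.44% of all genes were called in this comparison and with DESeq2 8.66%, and 0 of the 76 had an unadjusted p under 0.05. RPS12 was at 369, 400 and 498 CPM and overlapped its controls. E. faecium alone gave a median of 0.06, between -0.07 for RPS18 and 0.2 for RPL13. Its sign turned with 1 library: the median was -0.17 without the E. faecium library numbered 3, -0.02 without the control library numbered 3, and 0.17 without the E. faecium library numbered 2. In this comparison edgeR called 0% of all genes and DESeq2 4.03% of the genes it gave an adjusted p, which included 68 of the 76, and again 0 had an unadjusted p under 0.05. Within sets the median difference for E. faecium was 0.29, -0.27 and 0.06. In set 1 all 76 genes were higher than in the control library and in set 2 none was.

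Adding E. faecium to poly I:C gave a median of -0.28 log2 units against poly I:C alone, between -0.41 for RPS24 and -0.15 for RPL15; 0% of all genes were called by either tool, and 0 of the 76 had an unadjusted p under 0.05. The sign rested on the poly I:C library numbered 1, without which the median was 0.07. Within sets it was -0.73, -0.06 and 0.14. Adding B. subtilis to poly I:C gave a median of 0.87 against poly I:C alone, between 0.46 and 1.26, and of 0.47 without the library numbered 1 of the combined treatment. In that comparison 68 of the 76 genes had an unadjusted p under 0.05 and lay higher, as did 5.9% of all genes, but the lowest adjusted p among the 76 was 0.447; edgeR called 0% of all genes and DESeq2 0.433%. With the sets as a block, the lowest adjusted p was 0.107. Within sets 1, 2 and 3 the median difference was 0.89, 0.02 and 1.47 log2 units.

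B. subtilis together with poly I:C against control was the comparison in which most of these genes passed. Of the 76, 65 rose and 0 fell (edgeR), 37 of 45 for the 60S subunit and 28 of 31 for the 40S subunit, where 19% of all genes rose. The median change was 1.17 log2 units, between 0.49 and 1.62, against -0.02 over all genes, with 1.11 for the 60S and 1.28 for the 40S genes. DESeq2 called 74 (22.4% of all genes), and with the library sets as a block 76 rose (27.1% of all genes). The call depended on the scaling: on library totals alone, where the median of all genes shifted to -0.82, 0 of the 76 passed and their median was 0.31. It also depended on single libraries. Without the library numbered 1, 14 genes passed, and without the library numbered 3, 49. Without both, an alternative chosen after the data had been seen, 0 passed and the median was 0.15. Without the control library numbered 3, 31 passed. The share of all genes called in each of these fits is not given here, so that these counts stand without that background.

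**Figure D2:**
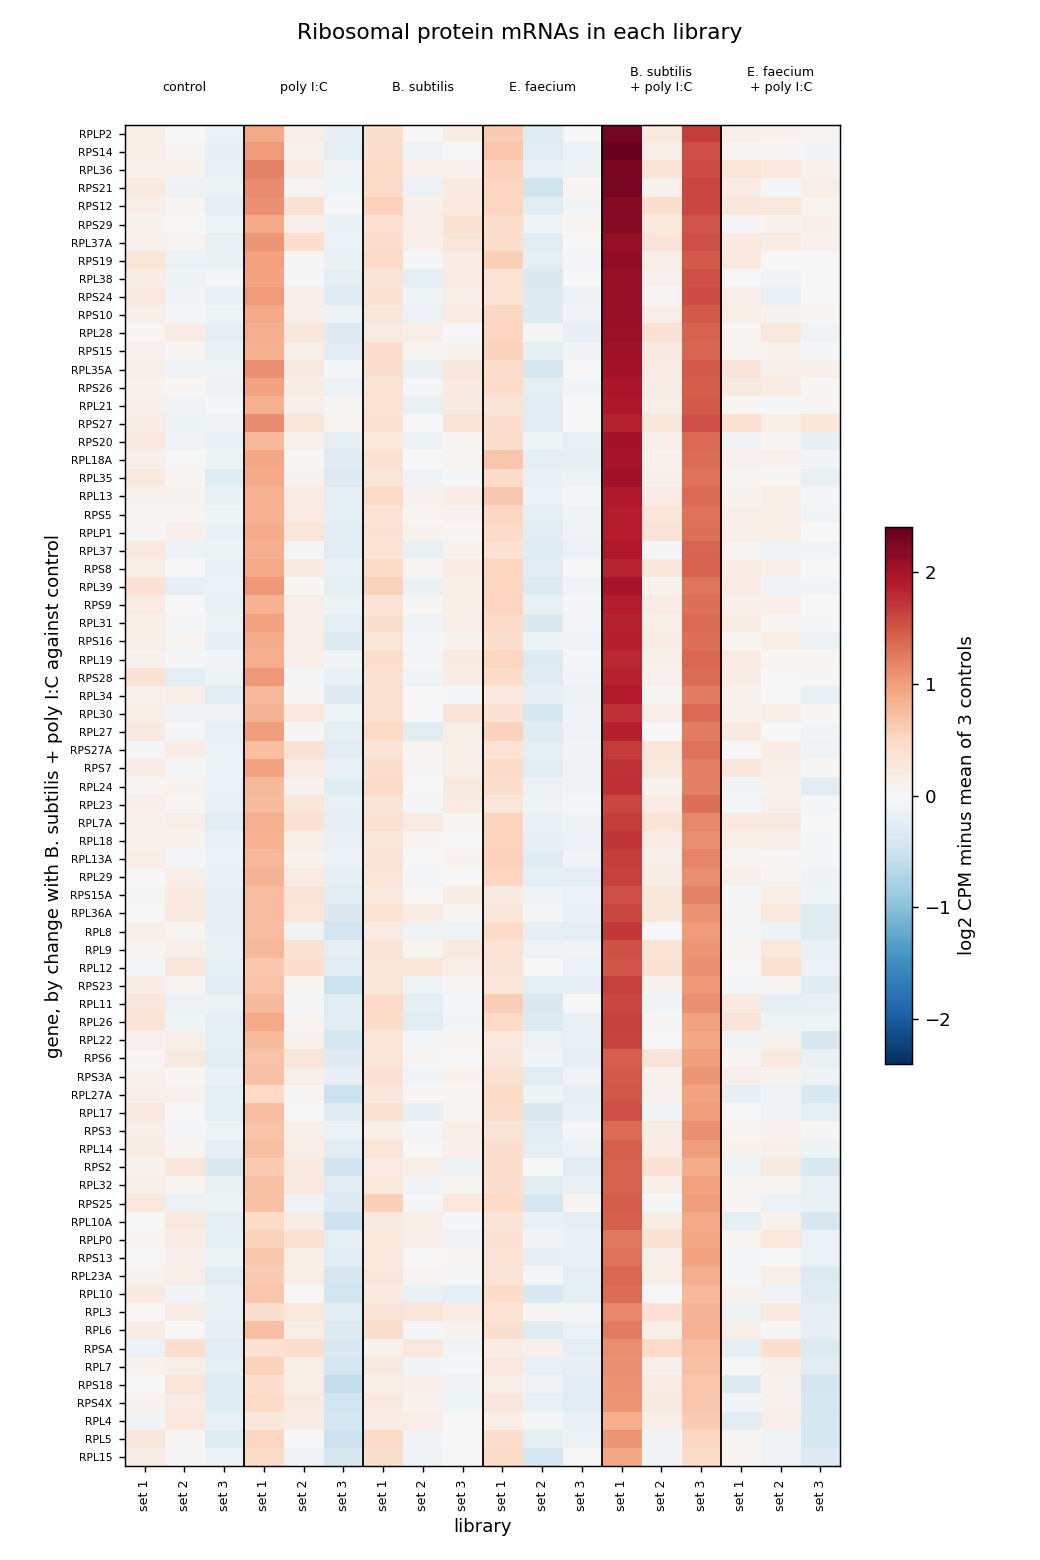
Level of 74 of the 76 ribosomal protein genes (rows) in each of 18 libraries (columns, by treatment and library set), as log2 CPM minus the mean of the 3 controls. Rows are ordered by change with B. subtilis and poly I:C against control, from RPLP2 at 1.62 to RPL15 at 0.49, and the strongest colours are in sets 1 and 3 of that treatment, with set 1 of poly I:C and of E. faecium paler in the same direction.

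On the 60S subunit, the acidic stalk proteins, which recruit the elongation factors, all rose. RPLP2 (chromosome 2, 507891 to 509818) was at 316, 289 and 262 CPM in control and at 1410, 339 and 910 CPM with B. subtilis and poly I:C, a change of 1.62 log2 units (SE 0.4, adjusted p = 0.0062). The 3 treated libraries lay above the 3 controls, 1 of them narrowly. RPLP1 rose by 1.3 (SE 0.35, adjusted p = 0.00893), and RPLP0, the base of the stalk (chromosome 14, 40219196 to 40223943), by 0.89 (SE 0.26, adjusted p = 0.0152), from 668, 726 and 552 CPM to 1550, 827 and 1220 CPM. RPL36 rose by 1.57 log2 units (SE 0.4, adjusted p = 0.00686), from 145, 145 and 120 CPM to 653, 168 and 401 CPM. RPL13A, which in human and mouse macrophages can leave the ribosome after interferon treatment to silence inflammatory mRNAs, rose by 1.11 (SE 0.34, adjusted p = 0.018). RPL39, a short protein of the tunnel through which the new chain leaves, rose by 1.29 (SE 0.41, adjusted p = 0.024). For RPL13A and RPL39 the library numbered 2, at 644 and 138 CPM, lay inside the control range.

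Other 60S genes were lowest in the ranking. RPL15 (chromosome 13, 10716373 to 10719959) was at 406, 348 and 327 CPM in control and at 685, 345 and 487 CPM with B. subtilis and poly I:C, a change of 0.49 (SE 0.28, adjusted p = 0.194). RPL5 (chromosome 4, 124359786 to 124367612), at 447, 376 and 303 against 768, 355 and 526 CPM, had a change of 0.55 (SE 0.31, adjusted p = 0.182). In both genes the library numbered 2 lay within the control range. RPL11 joins RPL5 and the 5S rRNA in a particle that can bind the p53 regulator MDM2; its change was 1.01 (SE 0.38, adjusted p = 0.0506). RPL4 (chromosome 1, 164476269 to 164481765) was at 505, 626 and 466 against 971, 589 and 810 CPM, a change of 0.57 (SE 0.24, adjusted p = 0.0719). The other genes that did not pass were RPL6, RPL7, RPL10, RPL26, RPS4X, RPS18 and RPS25.

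On the 40S subunit, RPS14 (chromosome 2, 151430047 to 151433951), whose loss of 1 copy underlies the anaemia of the human 5q- syndrome, was at 337, 308 and 262 CPM in control, 608, 319 and 257 with poly I:C, 283, 298 and 395 with B. subtilis, 272, 248 and 476 with E. faecium, 1550, 330 and 882 with B. subtilis plus poly I:C, and 305, 288 and 311 with E. faecium plus poly I:C. With B. subtilis plus poly I:C the libraries numbered 1 and 3 were the highest of all 18, while the library numbered 2 lay inside the control range. The rise against control was 1.61 log2 units (SE 0.44, adjusted p = 0.0107). RPS12 rose by 1.56 (SE 0.37, adjusted p = 0.00484), from 380, 351 and 293 CPM to 1540, 450 and 1030 CPM, and all 3 libraries lay above the controls. RPS19, which is mutated in human Diamond-Blackfan anaemia, rose by 1.45 (SE 0.41, adjusted p = 0.0123), with the library numbered 2, at 372 CPM, inside the control range. RPS6, the substrate of the S6 kinases downstream of mTORC1 (chromosome 1, 203444360 to 203447643), was at 408, 461 and 329 against 1070, 493 and 796 CPM, a rise of 0.98 (SE 0.29, adjusted p = 0.015). RPS3, at the entry of the mRNA channel, rose by 0.95 (SE 0.27, adjusted p = 0.0136), and RPS27A, which is made fused to ubiquitin, by 1.19 (SE 0.3, adjusted p = 0.00664). The X-linked RPS4X was at 448, 480 and 346 against 872, 487 and 659 CPM and did not pass (0.66, SE 0.27, adjusted p = 0.0649).

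**Figure D3:**
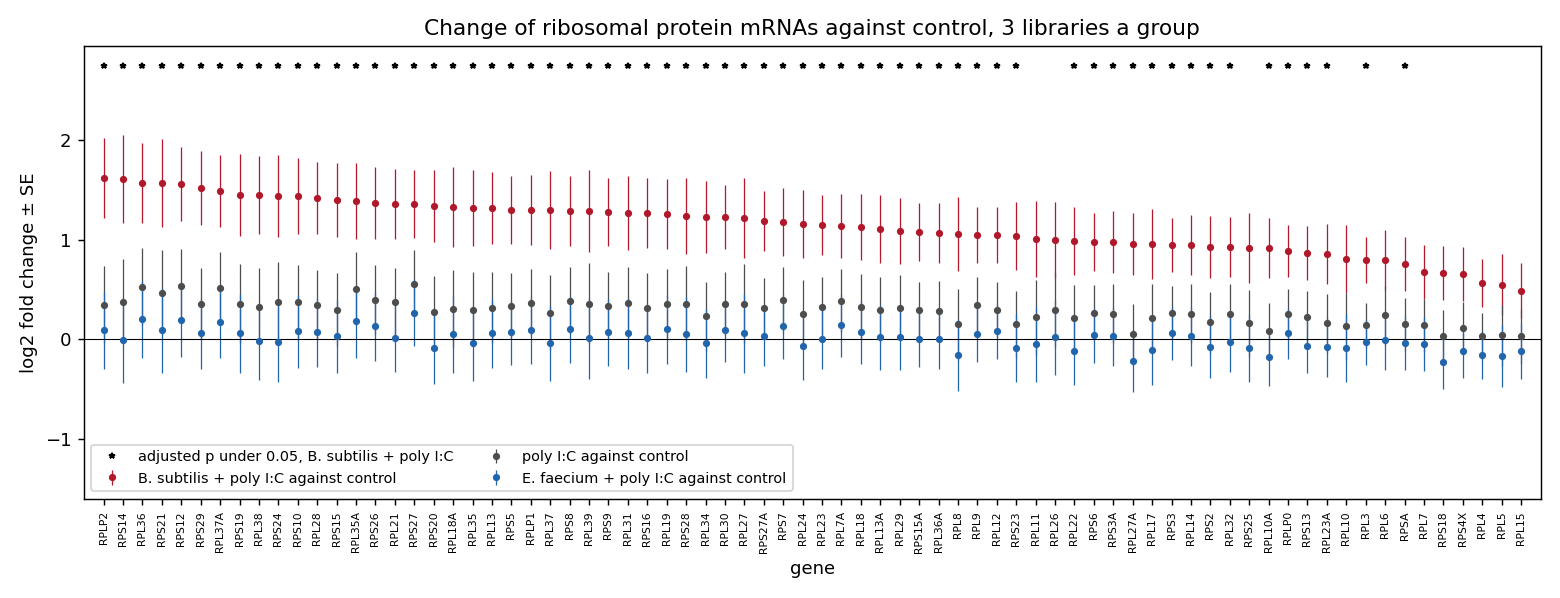
Log2 fold change with its standard error (edgeR, 3 libraries a group) of 74 of the 76 ribosomal protein genes against control, for 3 treatments. Stars mark the 63 genes shown that are past an adjusted p of 0.05 with B. subtilis and poly I:C; the medians over all 76 genes are 1.17 there, 0.31 with poly I:C and 0.02 with E. faecium plus poly I:C, and on library totals they are 0.31, -0.24 and -0.5.

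The library numbered 2 of B. subtilis with poly I:C stood apart from the other 2 in these genes. Within sets 1, 2 and 3 the median difference from the control library was 1.62, 0.13 and 1.4 log2 units, and 76, 62 and 76 of the genes were higher. The ranges of the 2 groups did not overlap for 38 of the 76 genes, all higher with the treatment, beside 19.8% of all genes higher. Across the 76 genes, which share these libraries, the within-set differences of sets 1 and 3 had a Pearson correlation of 0.949, those of sets 1 and 2 of 0.528, and those of sets 2 and 3 of 0.634; this describes the genes and is no test. The genes also did not keep their proportions. RPS14 made up 1.41, 1.35 and 1.36% of the ribosomal protein counts in control and 2.21, 1.33 and 1.8% with B. subtilis and poly I:C. RPL15 made up 1.7, 1.52 and 1.69% and then 0.974, 1.39 and 0.995%, and RPL4 2.11, 2.74 and 2.41% and then 1.38, 2.37 and 1.65%. These proportions do not depend on the scaling between libraries. Over all 18 libraries the SD of log2 CPM was largest for RPS14 (0.7) and RPS21 (0.69), and smallest for RPL4 (0.32), RPL15 (0.34) and RPL3 (0.36).

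Against the other treatments, B. subtilis with poly I:C gave like values. Against B. subtilis alone 43 of the 76 genes rose (22 for the 60S and 21 for the 40S subunit) and 0 fell (median 1.01), where 11.1% of all genes rose. RPS14 rose by 1.5 (SE 0.44, adjusted p = 0.0281), from 283, 298 and 395 CPM, with the library numbered 2 at 330 CPM inside that range. With the sets as a block 73 rose (21.5% of all genes), with the pig numbers as a block 24 (9.51%), and with DESeq2 66 (14.7%). Leaving out any 1 library of B. subtilis, or the library numbered 1 or 3 of the combined treatment, left 0 called. Leaving out the library numbered 2 of the combined treatment gave 74. The share of all genes called in these fits is not given here. On library totals 0 were called. Within sets the median difference was 1.37, 0.19 and 1.11.

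Under poly I:C, B. subtilis against E. faecium gave a median of 1.15 log2 units, between 0.6 and 1.61. All 76 genes had an unadjusted p under 0.05 and lay higher with B. subtilis, as did 9.85% of all genes, but 0 passed after adjustment with edgeR, which called 0% of all genes (lowest adjusted p among the 76, 0.167). With the sets as a block 75 rose (5.91% of all genes), and DESeq2 called 67 upward (5.15%). RPS14 was at 1550, 330 and 882 CPM with B. subtilis and at 305, 288 and 311 CPM with E. faecium, and these ranges did not overlap. For 49 of the 76 genes the ranges did not overlap and were higher with B. subtilis, against 4.99% of all genes. Within sets the median difference was 1.66, 0.1 and 1.32.

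The remaining comparisons called 0 of the 76 genes with either tool, and 0 had an unadjusted p under 0.05 with edgeR. E. faecium with poly I:C against control had a median of 0.02, between -0.23 and 0.27, while 23.1% of all genes were called (DESeq2 28.8%). On library totals that median was -0.5, where the median of all genes was -0.57. There 9 of the 76 genes were called, all lower, beside 29.9% of all genes called lower. Against E. faecium alone the median was -0.04 (15.8% of all genes called, DESeq2 20.6%). The bacteria without poly I:C differed by a median of 0.1, higher with B. subtilis (0.177% called, DESeq2 2.21%). The interaction of B. subtilis and poly I:C, the change with both beyond the sum of each, had a median of 0.7 log2 units and a lowest adjusted p of 0.596 among the 76 (0.0368% called; DESeq2 0.883%, with 1 of the 76 at an unadjusted p under 0.05). With the sets as a block 27 of the 76 had an unadjusted p under 0.05 and 0 were called. In that fit 203 genes of the whole table were called up and 318 down. The share of all genes at that unadjusted p is not given here. Without the library numbered 1 of the combined treatment that median was 0.29, and without the poly I:C library numbered 1 it was 1.04. The interaction of E. faecium and poly I:C had a median of -0.35 (0% called by either tool). These comparisons share control or poly I:C libraries, so that their values are not independent of each other.

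Genes of short annotated span moved with these genes in the same libraries. The 289 other genes spanning 2000 bp or less had a median log2 CPM of 3.2, 3.47 and 3.25 in control and of 3.92, 3.2 and 4.06 with B. subtilis and poly I:C, so that here too the libraries numbered 1 and 3 lay above the controls and the library numbered 2 did not. In that comparison other protein-coding genes had a median change of 0.63 log2 units at spans of 1500 bp or less (158 genes), 0.4 up to 3000 bp, 0.23 up to 5000 bp, 0.15 up to 10000 bp and -0.03 up to 30000 bp. Ribosomal protein genes in the same classes had medians of 1.37, 1.3, 1.03, 1.05 and 1.17. Their change was thus higher than that of the other genes in each class. With E. faecium plus poly I:C the other genes were at 0.11 in the shortest class and at 0.12 above 100000 bp, and ribosomal protein genes between -0.02 and 0.06. Span includes introns and is not mRNA length, and the part of length, RNA quality or library preparation in the result was not tested. The 10 most abundant genes took 17.1, 12.8 and 16.2% of the counts with B. subtilis plus poly I:C, and 11.2, 10.5 and 12.4% in control.

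**Figure D4:**
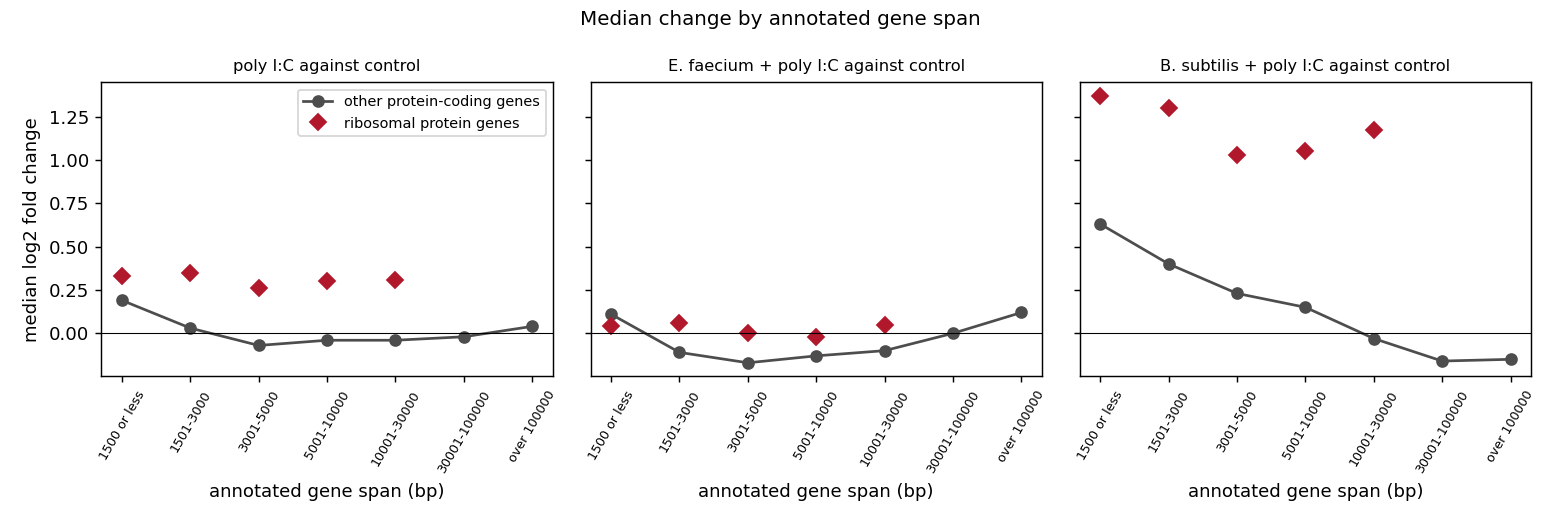
Median log2 fold change against control by class of annotated gene span in bp, for ribosomal protein genes (diamonds) and all other protein-coding genes tested (circles), in 3 treatments. With B. subtilis and poly I:C the other genes run from 0.63 in the shortest class to -0.15 above 100000 bp, and ribosomal protein genes lie between 1.03 and 1.37.

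The summed level of the 14 macrophage markers moved in the same libraries, at 36200, 11200 and 27900 CPM with B. subtilis and poly I:C against 10500, 8880 and 10600 CPM in control. This sum was mostly APOE, a lipid carrier, at a mean of 8440 CPM over all libraries. Of the 14, 5 rose and 1 fell (median change 0.64), where 19% of all genes rose and 16.6% fell. Markers of T, NK and B cells summed to 301 to 341 CPM against 343 to 451 CPM, and this sum was mostly NKG7, at a mean of 285 CPM over all libraries. Neutrophil and mast cell markers summed to 1480 to 3310 against 710 to 1320 CPM, with MPO and CPA3 at 0 in every library. This sum was nearly all S100A12, at a mean of 1530 CPM over all libraries; of the 4 markers tested 1 rose and 1 fell, with a median of -0.32. Epithelial markers summed to 66.3, 345 and 85.3 CPM against 29.1, 153 and 31.8 CPM in control, highest in the library numbered 2 of both groups. This sum was nearly all EPCAM, at a mean of 120 CPM over all libraries, while each other marker of that list had a mean of at most 0.811 CPM. The part of other cells in the ribosomal protein result was not tested.

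Some ribosome components fall outside the naming rule. The scaffold protein RACK1 of the 40S head was at 477, 485 and 398 CPM in control and at 1340, 554 and 914 CPM with B. subtilis and poly I:C, a rise of 1.04 (SE 0.3, adjusted p = 0.0136). FAU, which yields the 40S protein eS30, rose by 1.23 (adjusted p = 0.0343), with the library numbered 2, at 99 CPM, inside the control range. Of 5 paralogs tested 4 rose, where 19% of all genes did. RPL36AL, at 95, 93.5 and 77.1 against 344, 105 and 268 CPM, rose by 1.43, RPL22L1 by 1.19, RPL7L1 by 0.92 and RPL26L1 by 0.89. For RPL7L1 the library numbered 2, at 90.5 CPM, lay inside the control range. The paralog RPS27L, a p53 target in human cells, was at 0.15 (adjusted p = 0.662) and fell by 0.74 with E. faecium and poly I:C (adjusted p = 0.0366). These calls are on the TMM scale. On library totals none of the 7 genes rose, and RPS27L fell by 0.69 with B. subtilis plus poly I:C (adjusted p = 0.0142) and by 0.97 with poly I:C (adjusted p = 0.00346). With TMM scaling edgeR called none of the 7 with poly I:C, B. subtilis or E. faecium alone.

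Factors that build ribosomes lay lower in the groups with poly I:C. With poly I:C against control 7 of 44 ribosome biogenesis factors fell and 1 rose (median -0.65 log2 units), where 9.55% of all genes fell and 12.9% rose. With the library sets as a block 29 fell (20.8% of all genes), and on library totals also 29 (28.2% of all genes). Other settings gave 5 (RLE factors), 10 (DESeq2) and 11 (upper-quartile factors). With B. subtilis plus poly I:C 8 fell and 1 rose (median -0.48), a share near the 16.6% of all genes that fell, and with E. faecium plus poly I:C 5 fell (median -0.59), near the 9.9% of all genes. On library totals 37 and 30 fell, beside 45.3 and 29.9% of all genes. The medians stayed below that of all genes under each scaling tried. NOP2, which methylates the 28S rRNA, was at 34.6, 51.5 and 29.6 CPM in control and at 10.8, 20.9 and 11.1 CPM with poly I:C, and fell by 1.44 (adjusted p = 0.0123). All 3 libraries lay below the controls. With B. subtilis and poly I:C it fell by 1.61, to 8.84, 16.8 and 12.1 CPM. RRS1, which helps to load the 5S particle, fell by 1.41 with poly I:C (adjusted p = 0.0318) and by 1.62 with both. EIF6, which keeps the subunits apart until the large one is mature, was the gene of this list that rose, by 0.62 with poly I:C (adjusted p = 0.0477, lost with upper-quartile factors and on library totals) and by 1.41 with both (adjusted p = 0.000192). With either bacterium alone none of the 44 passed with edgeR and TMM scaling, while DESeq2 called 1, a rise with B. subtilis.

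**Figure D5:**
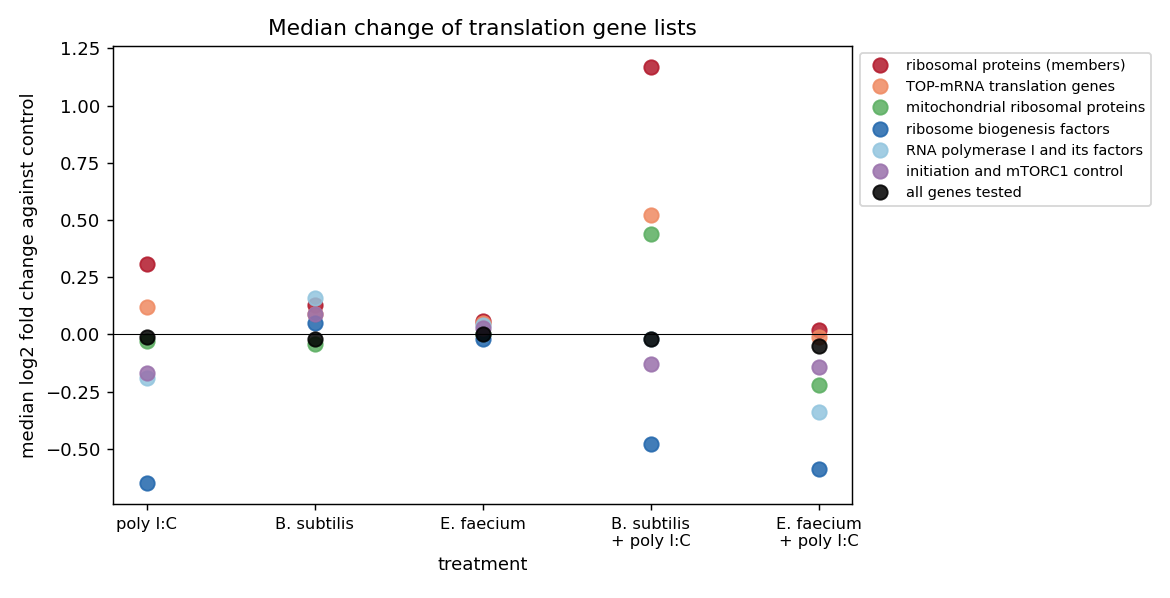
Median log2 fold change against control of ribosomal protein genes, of 5 lists of translation genes and of all genes tested, by treatment, with TMM scaling. Ribosomal proteins are at 1.17 with B. subtilis plus poly I:C and biogenesis factors at -0.48, while with poly I:C alone they are at 0.31 and -0.65; on library totals the ribosomal protein medians are 0.31 and -0.24.

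Of 20 other genes with TOP mRNAs, most of them for translation factors, 7 rose and 1 fell with B. subtilis plus poly I:C (median 0.52), where 19% of all genes rose and 16.6% fell. On library totals 1 rose and 7 fell, beside 7.04 and 45.3% of all genes. With poly I:C 1 rose and 1 fell, where 12.9% of all genes rose and 9.55% fell, and on library totals 1 rose and 5 fell, beside 7 and 28.2%. PABPC1, the poly(A)-binding protein, rose with poly I:C by 1.9 (SE 0.2, adjusted p = 2.35e-05), from 734, 746 and 636 to 2360, 2940 and 2580 CPM, and with B. subtilis alone by 1.58 (adjusted p = 0.000619). It was at 3180, 3340 and 3300 CPM with B. subtilis and poly I:C, a rise of 2.21 (adjusted p = 8.28e-06) that all 3 libraries showed. VIM, an intermediate filament with a TOP mRNA, fell by 0.78 with poly I:C (adjusted p = 0.0312). Mitochondrial ribosomal proteins, which serve a separate ribosome, gave 3 up and 2 down of 75 with poly I:C (median -0.03) and 24 up and 2 down with B. subtilis and poly I:C (median 0.44), beside the same shares of all genes as above. Scaled to library totals, these counts were 0 up and 30 down with poly I:C, beside 7 and 28.2% of all genes. They were 3 up and 20 down with B. subtilis and poly I:C, beside 7.04 and 45.3% of all genes. MRPL47 rose by 1.36 with both (adjusted p = 0.00121; 0.102 on library totals), and MRPL4 fell by 0.52 (adjusted p = 0.0302).

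Among regulators of translation, EIF2AK2 rose with poly I:C by 2.02 (SE 0.41, adjusted p = 0.00231), from 61.1, 126 and 76.7 to 258, 377 and 438 CPM. The inhibitor of the helicase eIF4A, PDCD4, rose by 2.17 (adjusted p = 5.55e-05). EIF4EBP2, which binds the cap-binding protein eIF4E under the control of mTORC1, fell by 1.54 (adjusted p = 0.000791), and MKNK1, a kinase of eIF4E, fell by 1.05 (adjusted p = 0.00292). Of the 26 genes of this list 5 rose and 4 fell with poly I:C, 7 rose and 4 fell with B. subtilis plus poly I:C, and 5 rose and 4 fell with E. faecium and poly I:C. Of all genes 12.9, 19 and 13.3% rose and 9.55, 16.6 and 9.9% fell in these comparisons. On library totals these counts were 2 up and 8 down, 2 up and 12 down, and 4 up and 9 down. Of all genes 7, 7.04 and 7.27% rose there, and 28.2, 45.3 and 29.9% fell. The counts that fell lay near these shares. With either bacterium alone edgeR with TMM scaling called none of the 26; with B. subtilis DESeq2 called 1 lower, the fit on library totals 2 and the fit with the sets as a block 3.

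Among genes that sense or clear stalled ribosomes, ZNF598, the ubiquitin ligase that marks collided ribosomes, rose with poly I:C by 1.98 (adjusted p = 0.000206), from 39.7, 59.6 and 44.2 to 189, 150 and 228 CPM. MAP3K20, which encodes the kinase ZAK that responds to such collisions, fell by 1.07 (adjusted p = 0.013), from 35, 29.8 and 29.5 to 11.2, 16.7 and 17.2 CPM. Neither pair of ranges overlapped. Of the 19 genes of this list 6 rose and 2 fell with TMM scaling, where 12.9% of all genes rose and 9.55% fell. Scaled to library totals, 3 rose and 5 fell, where 7% of all genes rose and 28.2% fell. Of 17 genes of RNA polymerase I and its factors, which transcribe the rRNA, 3 rose and 2 fell with TMM scaling. Scaled to library totals, 1 rose and 5 fell. These counts of the 17 were close to the shares of all genes under each scaling. CD3EAP, a subunit of that polymerase, fell by 1.45 with TMM scaling (adjusted p = 0.0208).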

How the data were processed

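Counts per gene were deposited by the authors as 1 table of whole numbers for 18 libraries, with no normalization applied; 0 columns belonged to other series. The submitters' processing notes name DESeq2 and the build Sscrofa11.1. The aligner, counter, annotation release and use of strand are not given in the sources read here. Symbols came from the table, and positions from the RefSeq table of the same build, which matched 30335 gene IDs and lacked 351.

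The main test was edgeR's quasi-likelihood test (edgeR 4.0.16, R 4.3.3): TMM factors, filterByExpr with a minimum count of 10 (13592 genes), and 1 mean per treatment over all 18 libraries with no block. Tests were two-sided, with Benjamini-Hochberg adjustment over all tested genes and a threshold of 0.05. DESeq2 1.42.0 was an alternative, with RLE, upper-quartile and total scaling, TMM without these genes, no filter, both blocks, and each library left out. The edgeR steps were tested on simulated data. Log2 CPM used a prior count of 2. In the main test a p-value sets a difference between groups against the spread between libraries within groups, with no term for the pig.

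The column number was taken as the pig number of the labels. Over all 6 groups, same-numbered libraries did not deviate together (lowest pair -0.527, highest 0.737). The number was therefore no block in the main model. In control, poly I:C and B. subtilis with poly I:C, however, number and set were the same. With the pig numbers as a block, 64 of the 76 genes rose with B. subtilis plus poly I:C against control, beside 2462 of all 13592.

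The genes, lists and tests were chosen with earlier results of these data known. Genes were named by rule: in each main comparison the 4 highest and 4 lowest changes, the 3 largest and 3 smallest SDs, every tested paralog, and in each other list the 2 highest and 2 lowest past the threshold in a main comparison, not all of which are printed. A part of the rule on level per length could not be applied, since no transcript lengths were at hand. Genes named in the secondary comparisons were chosen after their values were seen. No sequences were at hand, and none is shown. Results on 3 genes are not reported here by name; their rows stay in the fits and counts.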

Additional observations from a re-analysis of the deposited data

How the results depend on the processing

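For the 76 genes, alternatives changed the following values, and the cause was not tested. On library totals, where the median of all genes was -0.54, -0.33, -0.82, -0.57 and -0.45, the median of the ribosomal protein genes was -0.24 for poly I:C, -0.18 for B. subtilis, 0.31 for B. subtilis plus poly I:C (0 called) and -0.5 for E. faecium plus poly I:C (9 called, all lower), each against control, and -0.42 for E. faecium plus poly I:C against E. faecium. Beside the 9 genes called lower on library totals, 29.9% of all genes were called lower. With upper-quartile factors the median of the ribosomal protein genes was -0.11 for E. faecium plus poly I:C against control. For B. subtilis plus poly I:C against B. subtilis, 43 calls became 0 on library totals, 27 without the filter, 24 with the pig number as a block, 73 with the library sets as a block and 66 with DESeq2. Against E. faecium plus poly I:C, 0 calls became 75 with the sets as a block and 67 with DESeq2. P-values with the sets as a block can be too small, since the sets were chosen from these same libraries. The block of pig numbers changed no other count by over 1.5 times. Without both libraries numbered 1 and 3 of B. subtilis plus poly I:C, an alternative chosen after seeing the data that assumes the lone library varies like the other groups, the median was 0.15 against control (0 called), -0.12 against poly I:C, 0.01 against B. subtilis (0 called), 0.15 against E. faecium plus poly I:C, and -0.28 for the interaction. Leaving out each library in turn gave 14 to 75 calls for B. subtilis plus poly I:C against control, 0 to 74 against B. subtilis, 0 to 66 against poly I:C and 0 to 76 against E. faecium plus poly I:C, with every highest count reached without the library numbered 2; the median of the E. faecium interaction ran from -0.56 to 0.01. In the other comparisons leaving out 1 library left 0 called. The share of all genes called in these fits is not given here, so that the counts cannot be set against it. With the 10 most abundant other genes taken out of the total, the share of counts was 3.24% in control, 2.99% with B. subtilis and 2.25% with E. faecium plus poly I:C. Of the ribosomal protein genes checked, none turned direction with a call under any alternative. The check covered the genes named by rule in each main comparison. With B. subtilis plus poly I:C against control it covered RPS12, RPLP2, RPS14, RPL36, RPL15, RPL5, RPL4 and RPS4X. Ribosomal protein genes were not checked in this way in other comparisons. Of the other genes named, RPS27L turned direction on library totals, from 0.15 to -0.69 with B. subtilis plus poly I:C. With 3 libraries a group, the change was smaller than its standard error for 75 of the 76 genes with B. subtilis alone and for 76 with E. faecium alone (median standard error 0.34 log2 units), so that changes of that size were not detectable here.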
